A study of Mus musculus with 6 samples.

Results

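The 9 genes described here encode parts of the complement system and were taken by gene symbol from the 43432 genes listed for each library. They are the C1q chains C1qa, C1qb and C1qc, the components C3, C4b, C7 and Cfb, and the receptors C3ar1 and C5ar1. RNA sequencing was deposited for 6 mouse libraries whose source is given as skeletal muscle, 3 titled FID and 3 titled control. The series uses a mouse in which Igf1 is removed from fibro-adipogenic progenitors (FAPs), the mesenchymal progenitors of muscle, and asks what the IGF-I they make does for them. Both groups carry the tag D3, which the labels do not spell out, and neither FID nor the control genotype is defined there. Per the labels' protocols, mice of 12 to 13 weeks received intraperitoneal tamoxifen at 100 ug per g on 5 days and then waited at least 1 week, and both sexes were used. The protocols also give 1000 ng of RNA as input and an RNA integrity number of at least 5.6, which allows partly degraded RNA. The labels name no promoter behind the deletion and do not say that the libraries of a group come from separate animals. The p-values thus cover the spread among the libraries, which may be partly technical. Reads of sex-linked genes, given below, differed within both groups, so the libraries of a group do not all share the same source animals.

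Complement is a cascade of plasma proteins that marks surfaces for removal and calls in immune cells. C1q, a bundle of A, B and C chains, recognises antibodies and dying cells and starts the classical route, in which C4 is cleaved. All routes meet at C3, whose activation fragment coats targets, and factor B, the product of Cfb, amplifies that step in the alternative route. C7 joins the later complex that inserts into membranes. The small fragments C3a and C5a act on myeloid cells through the receptors encoded by C3ar1 and C5ar1. Outside the liver, macrophages are the main source of C1q, while fibroblastic cells make C3, C4 and the proteases and inhibitors around them.

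Gene counts per library were 8750157, 9676812 and 9094185 in FID 1, 2 and 3 and 5201853, 9994541 and 10093757 in control 1, 2 and 3. Values are CPM, read counts scaled to a common library size with TMM factors, and fold changes are FID over control. Igf1, the gene the model targets, stood at 109, 107 and 81.4 CPM in FID libraries and at 134, 60.3 and 106 CPM in control libraries (log2 fold change -0.010), so it does not check the labels. Myofibre markers were scarce against the labelled source, with no one of 6 above 30.8 CPM in any library, among them Ckm, Acta1 and Myh4. The 6 hepatocyte markers reached at most 0.304 CPM, with Ttr at 0 in all libraries, and the 6 T, NK and B cell markers at most 0.734 CPM, with Cd3e at 0. Markers of FAPs and of macrophages were abundant, with 8 of 16 macrophage markers higher and 7 of 16 FAP markers lower in every FID library than in every control library, as were 13.0% (higher) and 12.3% (lower) of all genes tested. By log2 fold change, 14 of the 16 FAP markers lay below 0 and 2 above, where 6730 of all genes tested lay below and 6151 above. Of the 16 macrophage markers, 15 lay above 0 and 1 below. The part of both lists in the results below was not tested. Summed over 16 genes, macrophage markers came to 10380, 10088 and 7994 CPM in FID 1, 2 and 3 and to 6003, 5711 and 3631 CPM in control 1, 2 and 3. The 16 FAP markers summed to 49352, 38536 and 36610 CPM in FID libraries and to 65664, 74269 and 65825 CPM in control libraries. Genes of type I and type III collagen made up most of these sums, and without them the groups overlapped. Ly6a, kept in those reduced sums, went the other way from most FAP markers (log2 fold change 1.61, DESeq2 adjusted p 0.0189). It measured 496, 2322 and 1886 CPM in FID 1, 2 and 3 against 433, 445 and 660 CPM in control 1, 2 and 3. Interferon response genes stood apart in part of the FID group. Their sum over 14 genes was 1148 CPM in FID 1, 7958 and 4617 CPM in FID 2 and 3, and 1399, 461 and 999 CPM in control 1, 2 and 3. In RNA from mixed cells, fewer cells of a type and less RNA per cell cannot be told apart.

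**Figure D1:**
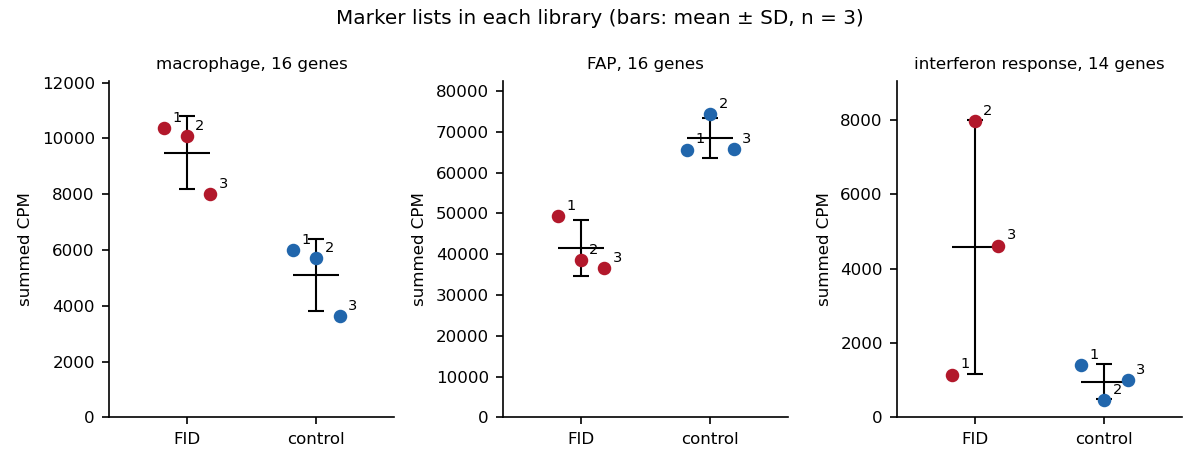
Summed CPM of macrophage markers, FAP markers and interferon response genes in each library (points, numbered by replicate; bars show mean ± SD, n = 3), FID left of control. Macrophage sums of FID libraries (7994 to 10380) lie above those of control libraries (3631 to 6003). FAP sums, mostly type I and type III collagen, lie below. The interferon sum is high in FID 2 and 3 and not in FID 1.

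The upstream sequences of 4 members are shown because these genes carry the contrast described below, C1qb (on average) and C3ar1 standing higher and C3 and C7 lower in FID libraries. Each is the 250 bases before the transcription start in RefSeq's annotation of mouse GRCm38.p6, written along the gene's own strand, which is the minus strand for all of them. Capitals mark matches on either strand to GAGGAA (the core bound by the myeloid factor PU.1), TTNNGNAA (C/EBP) or the NF-kB motif.
C1qb, chr4:136886201-136886450: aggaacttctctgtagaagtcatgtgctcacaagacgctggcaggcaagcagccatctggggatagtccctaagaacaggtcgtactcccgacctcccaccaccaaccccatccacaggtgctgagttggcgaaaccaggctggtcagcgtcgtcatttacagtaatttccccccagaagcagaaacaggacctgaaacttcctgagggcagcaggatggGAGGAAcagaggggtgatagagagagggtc
C3ar1, chr6:122856158-122856407: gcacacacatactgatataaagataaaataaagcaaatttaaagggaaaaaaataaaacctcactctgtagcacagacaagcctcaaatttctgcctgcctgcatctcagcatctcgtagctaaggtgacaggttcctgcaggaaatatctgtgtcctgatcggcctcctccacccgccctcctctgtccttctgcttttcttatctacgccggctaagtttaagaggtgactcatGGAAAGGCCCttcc
C3, chr17:57228137-57228386: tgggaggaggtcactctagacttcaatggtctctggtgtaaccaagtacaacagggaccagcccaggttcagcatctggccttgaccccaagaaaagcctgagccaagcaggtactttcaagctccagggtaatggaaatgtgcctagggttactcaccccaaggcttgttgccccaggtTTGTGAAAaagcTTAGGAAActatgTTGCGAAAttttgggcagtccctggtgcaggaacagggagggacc
C7, chr15:5063774-5064023: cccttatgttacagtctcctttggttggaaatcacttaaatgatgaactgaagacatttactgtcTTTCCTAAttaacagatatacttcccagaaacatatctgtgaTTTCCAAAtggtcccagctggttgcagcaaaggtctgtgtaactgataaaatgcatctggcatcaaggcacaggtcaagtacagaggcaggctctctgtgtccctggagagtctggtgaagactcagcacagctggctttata

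RefSeq's table held windows for 6 of the 9 members, these 4 and C1qc and C5ar1. The PU.1 core lay in 2 of these 6 windows, 30 bases before the start of C1qb and, on the opposite strand, 193 bases before that of C1qc, and it occurs in 23.3% of the 32851 mouse windows of that length. C/EBP letters lay in 4 of the 6 and occur in 36.8% of all windows. C3 held 3 such matches, at 70, 58 and 45 bases before the start, a number reached by 2.61% of windows and counted after the matches were seen. The NF-kB letters lay in C3ar1 alone among the 6 (4.65% of all windows). The interferon-stimulated response element lay in 0 of the 6 (2.98% of all windows). GENCODE, whose gene coordinates are given below, starts C1qc and C5ar1 further upstream, inside these RefSeq windows. The C/EBP match of each thus lies within its GENCODE gene. All are letter matches within RefSeq's windows, with no binding measured.

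The C1q chains were the most abundant members per exon length and were higher on average in FID libraries, but the groups overlapped. C1qa, the A chain (chromosome 4, 136895917 to 136898803), measured 284, 361 and 233 CPM in FID 1, 2 and 3 against 266, 217 and 97.1 CPM in control 1, 2 and 3. C1qb, the B chain (chromosome 4, 136880129 to 136886187), measured 468, 606 and 292 CPM in FID libraries against 347, 322 and 144 CPM in control libraries. C1qc, the C chain (chromosome 4, 136889804 to 136893065), measured 277, 390 and 207 CPM in FID libraries against 237, 185 and 86.8 CPM in control libraries. For every chain FID 2 was highest and control 3 lowest, and FID 3 lay below control 1. The log2 fold changes were 0.60 (SE 0.35) for C1qa, 0.75 (SE 0.38) for C1qb and 0.78 (SE 0.38) for C1qc. Adjusted p in edgeR's quasi-likelihood test were 0.389, 0.323 and 0.309, so no chain passed. Without control 3 the log2 fold changes were 0.29, 0.46 and 0.48, and without FID 2 they were 0.42, 0.49 and 0.51. Leaving out control 1 gave 0.90, 0.97 and 1.10, and leaving out FID 3 gave 0.74, 0.99 and 0.98.

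The chains kept close proportions to each other in every library. Counted per exon length, C1qb made up 50.8%, 50.4% and 44.7% of the C1q total in FID 1, 2 and 3 and 45.7%, 49.3% and 48.8% in control 1, 2 and 3. The share of C1qa ranged from 31.4% to 37.4% in FID libraries and from 34.5% to 36.7% in control libraries, and that of C1qc from 16.9% to 18.3% and from 16% to 17.6%. The total itself spread more widely, at 1029, 1356 and 732 CPM in FID libraries and 850, 724 and 328 CPM in control libraries. Relative to the macrophage marker sum of the same library, no chain separated the groups. C1qa came to 2.74%, 3.57% and 2.92% of that sum in FID libraries and to 4.43%, 3.8% and 2.67% in control libraries (exact two-sided permutation test p = 0.50, adjusted p = 0.643, where 3 against 3 libraries cannot go below 0.10).

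**Figure D2:**
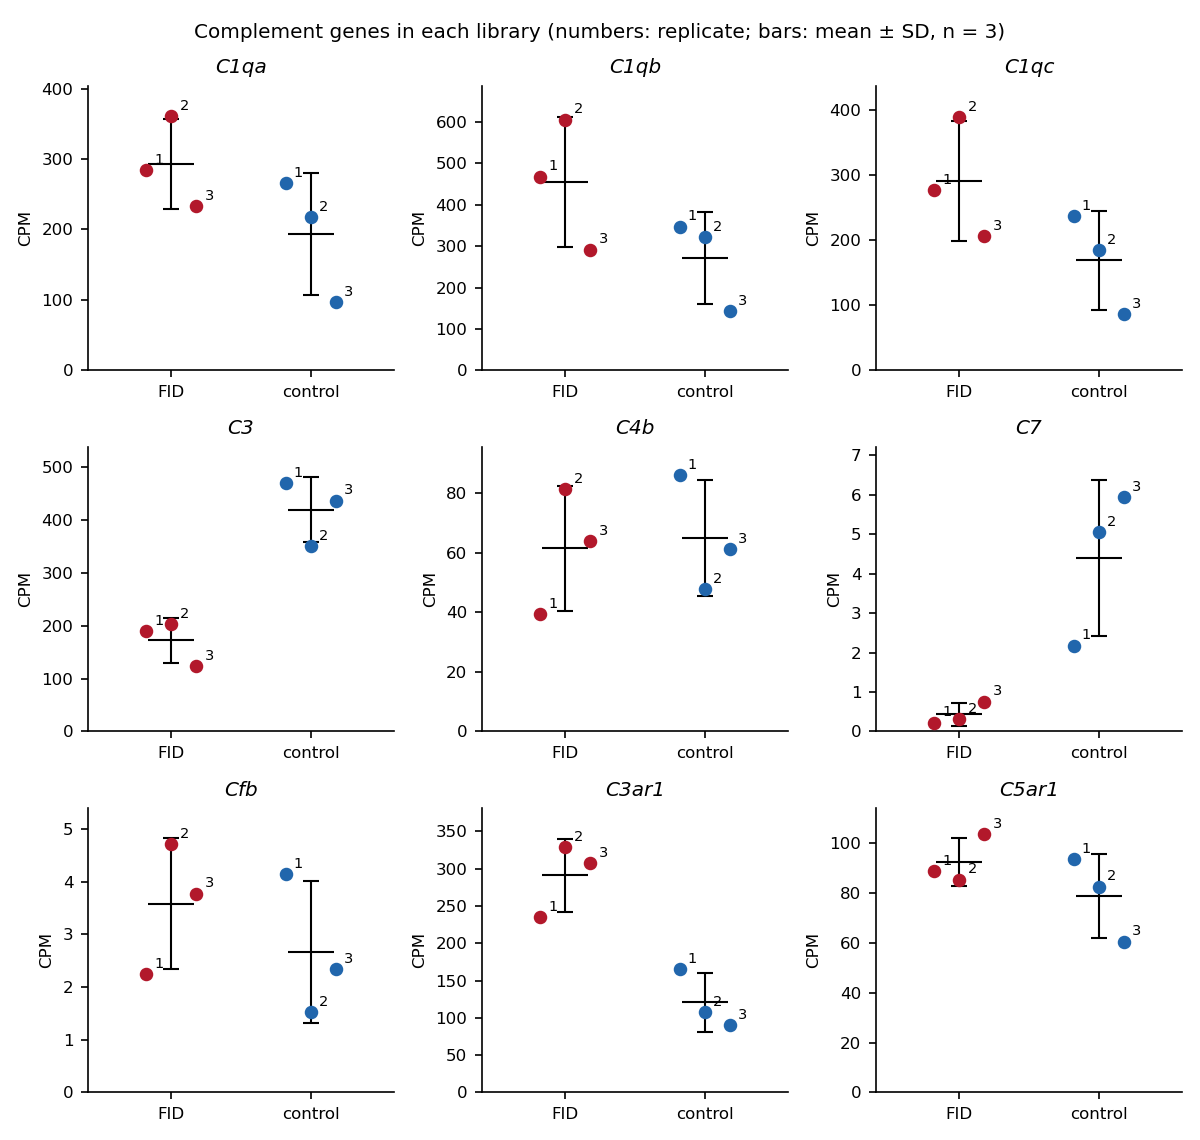
CPM of the 9 members in each library (points, numbered by replicate; bars show mean ± SD, n = 3), FID left of control, each axis starting at 0. C3 and C7 lie lower in all FID libraries, C3ar1 lies higher, and the groups of the other 6 genes overlap.

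The components grouped here as stroma-made did not move as a block. Which cells made them was not measured in these mixed libraries. C3 and C7 were lower in every FID library than in every control library, whereas C4b and Cfb overlapped. C3, the convergence point of the cascade (chromosome 17, 57203970 to 57228136), measured 189, 203 and 124 CPM in FID 1, 2 and 3 against 469, 350 and 436 CPM in control 1, 2 and 3. Group means were 172 ± 42.3 CPM in FID and 419 ± 61.4 CPM in control (SD over 3 libraries), a log2 fold change of -1.28 with SE 0.22, or 2.43-fold lower. Its adjusted p in edgeR's quasi-likelihood test was 0.122, above the threshold of 0.05. DESeq2 gave an adjusted p of 4.02e-05. C3 ranked 48th by p among 12881 genes tested, and 0.846% of them had a lower log2 fold change.

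C7, a subunit of the membrane attack complex (chromosome 15, 4988762 to 5063740), had few reads. Its counts were 2, 3 and 7 in FID 1, 2 and 3 against 11, 50 and 61 in control 1, 2 and 3, which is 0.225, 0.314 and 0.755 CPM against 2.17, 5.06 and 5.95 CPM. Pooled, 12 counts in FID and 122 in control gave a depth-scaled ratio of 0.0895, with an exact 95% interval of 0.0450 to 0.162 that covers counting error only. The log2 fold change was -3.34 (SE 0.56), the fitted value depending on the prior count for so few reads, and it was -3.98 without FID 3 and -3.03 without FID 1. The edgeR adjusted p was 0.122 and that of DESeq2 1.88e-04. Of all genes tested, 0.00776% had a lower log2 fold change. C7 also differed within groups along with sex-linked reads. Summed over 4 Y-linked genes these were 0, 0 and 163 CPM in FID 1, 2 and 3 and 0, 122 and 90.7 CPM in control 1, 2 and 3, and Xist in control 3 was 13.6 CPM. The libraries with Y-linked reads held the higher C7 levels of each group, 0.755 CPM in FID 3 against 5.06 and 5.95 CPM in control 2 and 3. Those without held 0.225 and 0.314 CPM in FID 1 and 2 against 2.17 CPM in control 1. The part of sex in the result was not tested.

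C4b, the mouse gene for complement C4 (chromosome 17, 34728380 to 34743882), measured 39.4, 81.2 and 63.8 CPM in FID 1, 2 and 3 against 86.1, 47.7 and 61.1 CPM in control 1, 2 and 3. The highest value belonged to control 1 and the lowest to FID 1, and edgeR gave a log2 fold change of -0.07 (adjusted p 0.920, SE 0.30). Its sign turned without control 1 or without FID 1, at 0.18 each. Of the 50-base stretches of its transcripts, 34.6% also occur in its copy C4a, which had at most 8 counts in any library, so its level is uncertain.

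Cfb (chromosome 17, 34856374 to 34862518) was scarce, at 2.25, 4.72 and 3.77 CPM in FID 1, 2 and 3 against 4.15, 1.52 and 2.34 CPM in control 1, 2 and 3. The groups overlapped, and edgeR gave 0.48 on the log2 scale (adjusted p 0.587, SE 0.45). Without control 2 it was 0.19 and without control 1 0.89. These levels are uncertain and may be understated, since 79.5% of the exon bases of Cfb lie on the same strand as exons of the readthrough gene Gm20547. That gene had 0 counts in every library, and the authors' files set reads that fit several genes apart from the gene counts. C2, its neighbour with the matching role in the classical route, shares 42.8% of its exon bases with Gm20547 and measured 2.36, 6.60 and 4.64 CPM in FID libraries against 1.78, 1.01 and 3.12 CPM in control libraries (log2 fold change 1.18, SE 0.52, edgeR adjusted p 0.272). For C2 the log2 fold change was 1.78 without control 3 and 0.81 without FID 2. C2 and Cfb were both highest in FID 2, where the interferon sum was highest too, and lowest in control 2, where that sum was lowest. The part of interferon in these levels was not tested.

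The receptors differed from each other. C3ar1, the receptor for C3a (chromosome 6, 122847138 to 122856161), measured 235, 330 and 308 CPM in FID 1, 2 and 3 against 166, 107 and 90.0 CPM in control 1, 2 and 3, with no overlap. Group means were 291 ± 49.3 CPM in FID and 121 ± 39.8 CPM in control (SD over 3 libraries). This is a log2 fold change of 1.27 with SE 0.25, or 2.41-fold higher, with an edgeR adjusted p of 0.136 and a DESeq2 adjusted p of 4.48e-04. C5ar1, the receptor for C5a (chromosome 7, 16246743 to 16259540), measured 88.6, 85.3 and 103 CPM in FID libraries against 93.6, 82.5 and 60.4 CPM in control libraries. Its groups overlapped, and edgeR gave 0.23 on the log2 scale (adjusted p 0.514, SE 0.18). Without control 3 that value was 0.09, and without control 1 it was 0.37. The ratio of C3ar1 to C5ar1, a pair chosen after the values were seen, was 2.66, 3.86 and 2.98 in FID libraries and 1.77, 1.30 and 1.49 in control libraries.

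Of the 9 members, 0 passed edgeR's adjusted threshold, as did 0% of the 12881 genes tested. An unadjusted p under 0.05 was reached by 3 members, C3 and C7 lower and C3ar1 higher, against 19.0% of all genes, 9.21% lower and 9.81% higher. These 3 were also the members without overlap, which 25.3% of all genes showed. DESeq2 called the same 3 genes, where it called 5.81% of the genes it tested, 3.62% higher and 2.19% lower. The median log2 fold change was 0.75 over the C1q chains, -0.68 over the stroma-made components, 0.75 over the receptors and -0.02 over all genes tested.

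The order of the members by level per exon length differed between the groups. In FID libraries it ran C1qb (418 ± 145 CPM per kb of exon), C1qa (281 ± 61.5), C1qc (151 ± 47.9), C3ar1 (67.6 ± 11.5), C5ar1 (36.0 ± 3.75), C3 (33.5 ± 8.23), C4b (10.8 ± 3.69), Cfb (1.27 ± 0.441) and C7 (0.161 ± 0.106). In control libraries C3 came next after the C1q chains, at 81.4 ± 11.9 CPM per kb, above C5ar1 (30.7 ± 6.57) and C3ar1 (28.1 ± 9.23), and C7 (1.64 ± 0.737) stood above Cfb (0.944 ± 0.476). Neighbours whose ranges overlapped were C1qb and C1qa in both groups, C5ar1 and C3 in FID libraries, C1qa and C1qc in control libraries, C1qc and C3 in control libraries, C5ar1 and C3ar1 in control libraries, and C7 and Cfb in control libraries. The place of Cfb is uncertain and its level may be understated, since 79.5% of its exon bases are shared with Gm20547 and its full exon length was used. The ratio of C3 to C3ar1 in CPM, a pair chosen after the values were seen, was 0.803, 0.617 and 0.402 in FID libraries and 2.83, 3.26 and 4.85 in control libraries.

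**Figure D3:**
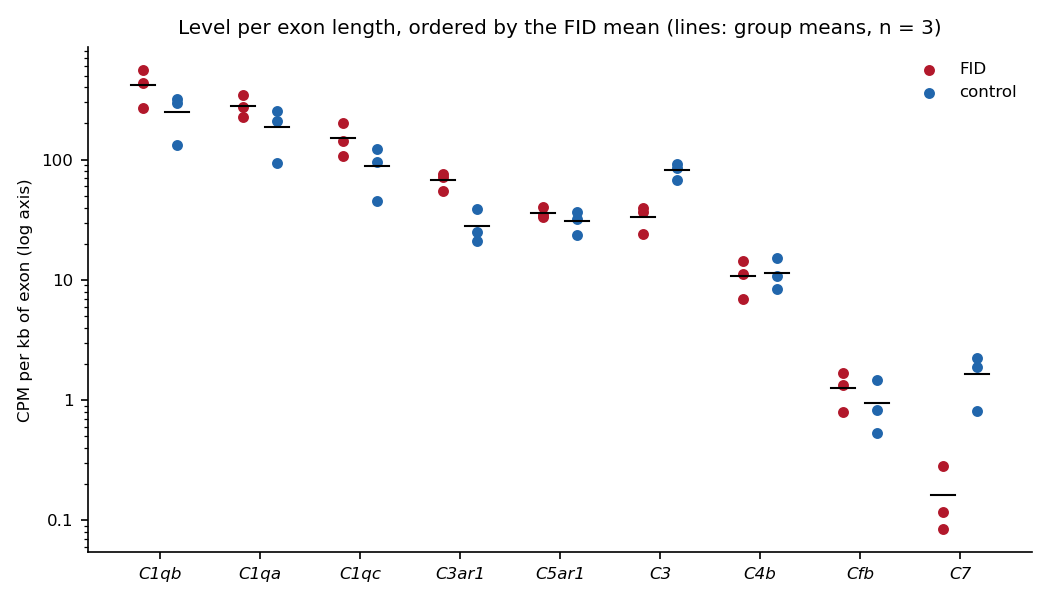
CPM per kb of exon (log axis) of the 9 members, ordered by the FID mean, with each library as a point and group means as lines (n = 3), FID left of control. C3 averages 33.5 in FID, level with C5ar1, and 81.4 in control, where it lies above both receptors.

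Ratios within a library set the stroma-made components against C1q without any scaling between libraries. C3 came to 18.4%, 15% and 16.9% of the summed C1q CPM in FID 1, 2 and 3 and to 55.2%, 48.4% and 133% in control 1, 2 and 3. The groups did not overlap, the mean log2 ratios being -2.58 in FID and -0.50 in control, a difference of -2.08 (exact two-sided permutation test p = 0.10, adjusted p = 0.30 over 6 ratios). C7 came to 0.0219%, 0.0232% and 0.103% in FID libraries and to 0.255%, 0.699% and 1.81% in control libraries. Its difference in log2 ratio was -4.20, again without overlap (exact permutation p = 0.10, adjusted p = 0.30). For C7 that difference was -3.50 without control 3, -4.91 without control 1 and -4.93 without FID 3. Differences in log2 ratio were -0.88 for C4b, -0.30 for Cfb, 0.52 for C3ar1 and -0.53 for C5ar1, with overlap for all of these (exact permutation p 0.20 to 0.80).

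The same was done with the marker sums of each library. C3 came to 0.383%, 0.527% and 0.338% of the FAP marker sum in FID libraries and to 0.714%, 0.472% and 0.663% in control libraries, with overlap. The difference in log2 ratio was -0.57 (exact permutation p = 0.20, adjusted p = 0.225 over 9 ratios). That sum is mostly type I and type III collagen. With the 3 collagen genes left out, a choice made after the data were seen, the difference for C3 was -1.05 and the groups no longer overlapped (exact permutation p = 0.10). C7 remained lower per FAP marker without overlap, at -2.68 on the log2 ratio scale (exact permutation p = 0.10, adjusted p = 0.15). With a pseudocount of 1 CPM the differences for C7 were -2.63 relative to C1q and -1.12 relative to FAP markers. The C1q chains and both receptors were higher per FAP marker in every FID library than in every control library (exact permutation p = 0.10, adjusted p = 0.15 for each). Their differences in log2 ratio were 1.43 for C1qa, 1.52 for C1qb, 1.58 for C1qc, 2.03 for C3ar1 and 0.98 for C5ar1. With the 3 collagen genes left out these were 0.95, 1.04, 1.10, 1.55 and 0.50. C1qa, C1qb, C1qc and C5ar1 then overlapped between the groups (exact permutation p = 0.20 for each C1q chain), while C3ar1 did not. Ly6a, a FAP marker far higher in FID 2 and 3 than in any control library, stayed in that reduced sum. Ratios without Ly6a were not tested. Against the macrophage marker sum, C3 (-2.22), C7 (-4.33) and C4b (-1.01) were lower without overlap on the log2 ratio scale (exact permutation p = 0.10, adjusted p = 0.225 for each). C3ar1 overlapped between the groups relative to that sum (difference 0.38, exact permutation p = 0.30, adjusted p = 0.540). C5ar1 was lower per macrophage marker in all FID libraries, at 0.854%, 0.846% and 1.29% of the sum against 1.56%, 1.44% and 1.66% in control libraries (difference -0.67, exact permutation p = 0.10, adjusted p = 0.225). The macrophage sum was itself higher in every FID library (7994 to 10380 CPM against 3631 to 6003 CPM). In CPM, C4b and C5ar1 overlapped between the groups (log2 fold changes -0.07 and 0.23).

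**Figure D4:**
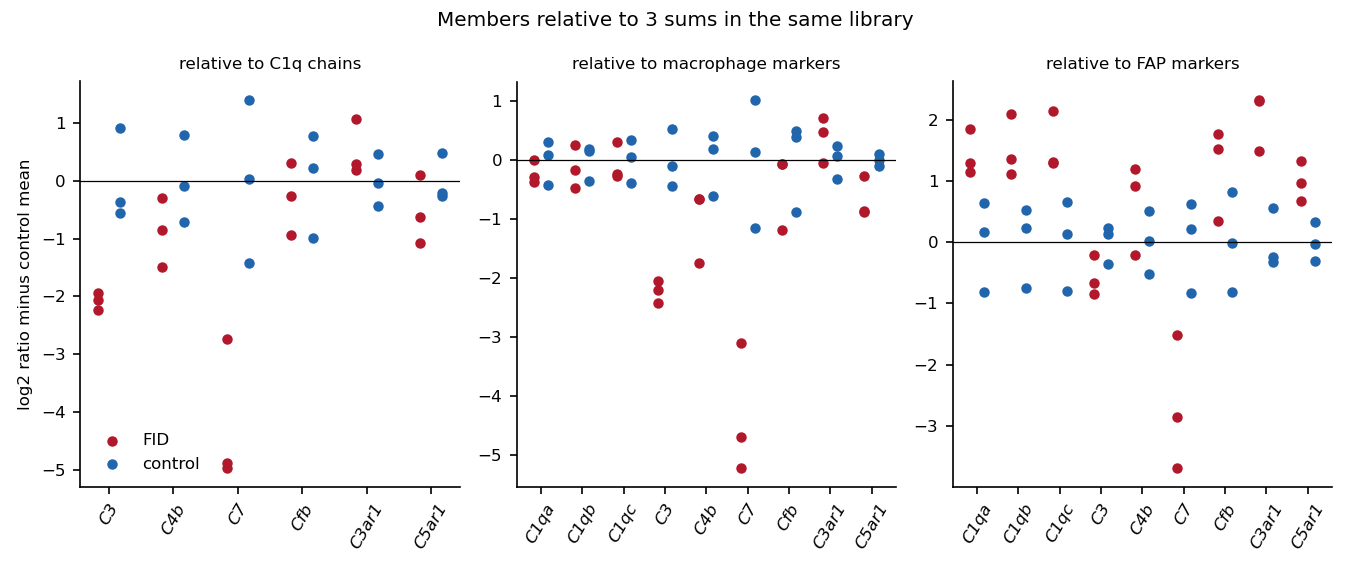
Log2 ratio of members to the summed C1q chains (left), macrophage markers (middle) and FAP markers (right) of the same library, each shown minus its control mean, with 3 FID points left of 3 control points per gene. C3 and C7 lie lower in FID relative to C1q and to macrophage markers without overlap, and C7 also relative to FAP markers. C4b and C5ar1 lie lower relative to macrophage markers, and the C1q chains and both receptors higher relative to FAP markers, also without overlap.

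The rest of the system was read from a list of 50 further complement genes, of which 23 passed the filter on low counts. Among these, 10 had a log2 fold change above 0 and 13 below, with a median of -0.13 against -0.02 over all genes tested. With edgeR 0 passed the adjusted test, and 7 had an unadjusted p under 0.05, 3 higher and 4 lower, against 9.81% of all genes higher and 9.21% lower. The groups did not overlap for 8 of the 23, 4 higher and 4 lower, against 13.0% (higher) and 12.3% (lower) of all genes tested. DESeq2, which called 5.81% of all genes, called 3, Itgam and Itgb2 higher and C1s1 lower. The other 27 genes did not pass the filter and stayed at or below 1.32 CPM in any library. Of these, 8 had no count in any library, among them Hc, which encodes C5, and the terminal components C8a and C8b. Cfd, the factor D that activates factor B, and the regulator gene Cfi were also left out by the filter.

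C1s1 and C1ra, proteases that act beside C1q, were lower in every FID library than in every control library and did not pass edgeR's adjusted test. C1s1, the protease that cleaves C4, measured 121, 109 and 84.8 CPM in FID 1, 2 and 3 against 194, 153 and 178 CPM in control 1, 2 and 3 (log2 fold change -0.74, SE 0.17, edgeR adjusted p 0.136). C1ra, which activates C1s, measured 95.6, 68.7 and 47.0 CPM in FID libraries against 133, 98.2 and 110 CPM in control libraries (log2 fold change -0.69, SE 0.26, edgeR adjusted p 0.216). Serping1, the inhibitor of C1r and C1s, overlapped between the groups at 307 ± 61.6 CPM in FID and 424 ± 74.6 CPM in control (SD, n = 3 each, log2 fold change -0.46). Clu, or clusterin, had a log2 fold change of -0.85 that was -0.22 without control 1, which stood at 186 CPM.

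Of the 6 further receptors tested, Itgam, Itgb2 and C5ar2 were higher in every FID library than in every control library, as was properdin, without passing edgeR's adjusted test. Of all genes tested, 13.0% were likewise higher without overlap. Itgam and Itgb2, the chains of complement receptor 3, bind C3 fragments on myeloid cells. Itgam measured 277, 339 and 335 CPM in FID libraries against 185, 190 and 201 CPM in control libraries (log2 fold change 0.72, SE 0.13, edgeR adjusted p 0.136). Itgb2 measured 232, 266 and 249 CPM against 152, 142 and 131 CPM in control libraries (log2 fold change 0.81, SE 0.12, edgeR adjusted p 0.122). Cfp, or properdin, which stabilises the alternative convertase, measured 112, 98.3 and 130 CPM in FID libraries against 81.7, 83.5 and 62.3 CPM in control libraries (log2 fold change 0.58, SE 0.17, edgeR adjusted p 0.161). C5ar2, a further receptor for C5a, had a log2 fold change of 0.68 (edgeR adjusted p 0.300), at 2.25 to 4.09 CPM in FID libraries and 1.82 to 2.05 CPM in control libraries. It had few reads, with 20 counts in FID 1 and 21 in control 3. Itgax, Cd93 and C1qbp overlapped, with log2 fold changes of 0.01, -0.10 and 0.09. Vsig4, a C3 fragment receptor of resident macrophages, had at most 0.113 CPM in any library. Among membrane regulators, Cd55, Cd59a and Cr1l had log2 fold changes of -0.15, -0.13 and 0.16 with overlap. Csmd1 was lower without overlap, at 1.78 to 2.26 CPM in FID libraries and 2.44 to 3.95 CPM in control libraries (log2 fold change -0.54, SE 0.31, edgeR adjusted p 0.385).

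**Figure D5:**
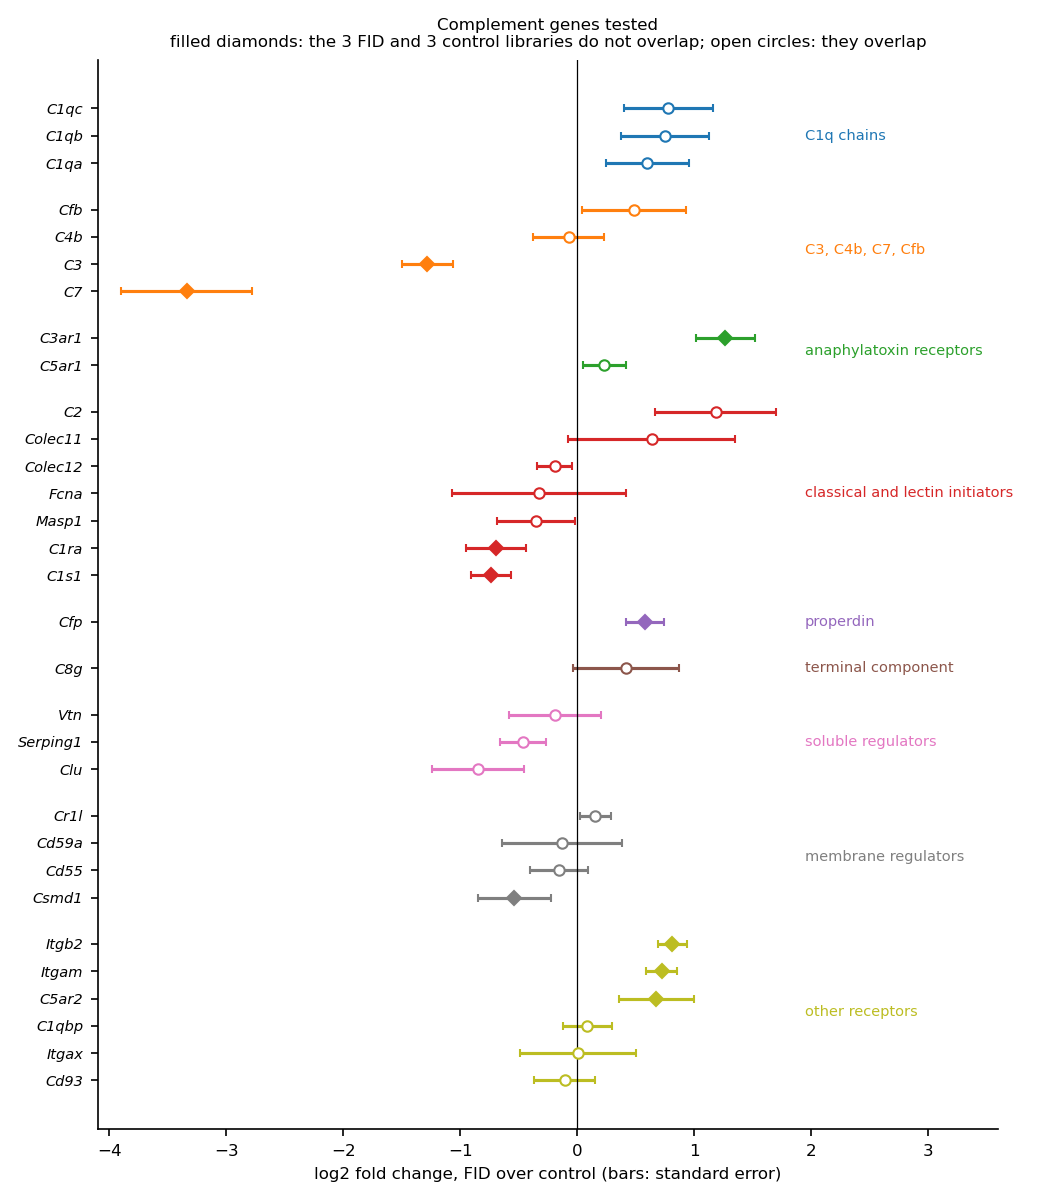
Log2 fold change, FID over control, with its standard error for the 9 members and further complement genes tested, grouped by role. Filled diamonds mark genes whose FID and control libraries do not overlap. C3 (-1.28), C7 (-3.34), C1s1 and C1ra lie left of 0 and C3ar1 (1.27), Itgam and Itgb2 right of it.

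Genes whose level followed a member most closely over the 6 libraries were picked by Pearson's r of log2(CPM + 1) among 9066 genes. Pearson's r leaves out the size of a change. Slc3a2, the closest to C1qa, ranged from 232 to 340 CPM, where C1qa ranged from 97.1 to 361 CPM. C1qa was followed by Slc3a2, an amino acid transporter chain (r = 0.9988), Dcaf11 (r = 0.9965) and Hsd17b11 (r = 0.9897). C3 was followed by E2f3, Ptk2 and Nfix (r = 0.9880, 0.9871 and 0.9870). C3ar1 was followed by Tlr13, an endosomal receptor for bacterial RNA (r = 0.9964), Naip2 (r = 0.9958) and Vav1 (r = 0.9955). Cfb was followed by Zfp68, Rab24 and Stx11 (r = 0.9944, 0.9899 and 0.9875). With 6 libraries many genes come this close, 190 having r above 0.95 with C3ar1, 76 with C1qa, 52 with C3 and 30 with Cfb. The 6 points share the split into groups, and the values are a description. Among the members, r was 0.971 to 0.989 between C1q chains, 0.833 between C4b and Cfb, and -0.949 between C7 and C3ar1.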

How the data were processed

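The authors deposited 1 file of unnormalised read counts per Ensembl gene for each library. The submitters' processing notes name the build mm10 and, with no role or order, STAR, cutadapt, Bowtie2 2.5.4, HTSeq, DESeq2 and SAMtools. Neither an annotation release nor a strand setting is stated. Lines naming no gene, 9.60% to 10.9% of each file's total, were left out. Symbols were matched for 42462 of 43432 genes (97.8%), and coordinates and exon lengths are those of GENCODE M21 on the same assembly.

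Counts were filtered (filterByExpr, minimum count 10, minimum total 15), TMM-scaled and tested with edgeR 4.0.16 (two-sided quasi-likelihood test, group as the only term, Benjamini-Hochberg over 12881 genes), after a check on simulated data. The simulated libraries varied less than these do, so that check does not show the power of the test here. DESeq2 1.42.0 and limma 3.58.1 were alternatives, with other scalings and filters, each library left out and a replicate block. SE are the absolute log2 fold change over the square root of F. Ratios were tested exactly with SciPy 1.17.1. Libraries of a group differed beyond sampling noise (chi-square per degree of freedom 14.1 to 46.0). A count of 0 allows 3 counts, 0.292 to 0.592 CPM. The members and gene lists were chosen with earlier results of these data known. Genes named are all members, listed complement genes (1 of them not reported here), markers and the 3 closest genes of C1qa, C3, Cfb and C3ar1.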

Additional observations from a re-analysis of the deposited data

How the results depend on the processing

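The members' log2 fold changes kept their sign in 113 of 115 values under other tests, scalings, filters and left-out libraries, the exception being C4b (-0.33 to 0.18 with 1 library left out). DESeq2 called 760 genes, 3 members (C3 -1.28, C7 -3.37, C3ar1 1.27) and 3 other complement genes (C1s1, Itgam, Itgb2). Without a filter on low counts edgeR called 269, 3 (C3 -1.26, C7 -3.32, C3ar1 1.30) and 2, against 0 of each with the filter and all 6 libraries. With 1 library left out and the filter kept, 0 to 351 genes, 0 members and 0 to 2 other complement genes were called, 351 and 2 (Itgam, Itgb2) without FID 1 and 3 and 0 without control 1. At a minimum count of 50, C7 and Cfb were not tested. Under limma-voom the sign turned for Vtn (0.012) and Cd59a (0.20), and under DESeq2 for Itgax (-0.012). With 1 library left out the sign was not fixed for Fcna (-1.44 to 0.04), Colec11 (-0.21 to 1.51), Vtn (-0.48 to 0.35), Cd55 (-0.27 to 0.086), Cd59a (-0.47 to 0.65), Itgax (-0.36 to 0.77), Cd93 (-0.31 to 0.24) or C1qbp (-0.086 to 0.29). The same held for the log2 ratios of Cfb to C1q (-0.80 to 0.087) and of C1qb (-0.32 to 0.043) and C1qc (-0.26 to 0.10) to macrophage markers. The cause was not tested. Same-numbered libraries did not all deviate together (correlations -0.0128, -0.320 and 0.343 for replicates 1, 2 and 3). Differently numbered pairs ranged from -0.379 to 0.332. These values do not settle whether libraries were paired, so the replicate block is only an alternative. With it 0 genes were called, C1qb had 0.79 (adjusted p 0.172) and the sign of Cd59a turned (0.03). Depth limits C7 and Cfb, with 12 and 100 pooled FID counts against 122 and 60 in control.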
